A study of Mus musculus with 9 samples.

Results

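Vegfa, Vegfb, Kdr, Flt1, Angpt1, Angpt2, Tek, Tie1, Pecam1 and Cdh5 are 10 genes of blood vessel growth and of the endothelium that lines the vessels. They were taken by symbol from a table of read counts for 55471 Ensembl gene IDs, and all 10 were found, each at a single ID. The table holds RNA-sequencing of the gastrocnemius, a calf muscle, of newborn mice at postnatal day 0 to 1 whose strain is labelled C57BL/6, from 5 *Shank3Δ11(-/-)* mice, homozygous for a deletion of exon 11 of Shank3, and 4 wild-type *Shank3(+/+)* mice. By the methods of the study the knock-outs were bred from heterozygous C57BL/6JRj parents. Each mouse gave 1 library, and the mice are called KO1 to KO5 and WT1 to WT4 after their genotype and replicate number. The study left out KO2 and KO4 for insufficient reads, so the main comparison set the remaining KO1, KO3 and KO5 against the 4 *Shank3(+/+)* mice, and values with all 9 mice stand beside it. The question put to the data was whether these genes differ with genotype in newborn muscle, and how they vary among the mice.

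Vessels grow into muscle under the control of secreted VEGF ligands and the receptor tyrosine kinases on endothelial cells that bind them. Vegfa is the main angiogenic ligand, is induced by low oxygen through hypoxia-inducible factors, and signals chiefly through Kdr (VEGFR2), while Flt1 (VEGFR1) binds Vegfa tightly and acts largely as a decoy, and also binds Vegfb. The angiopoietins act afterwards: Angpt1, made by cells around the vessel, stabilises it through the receptor Tek (TIE2), Angpt2, made by endothelial cells, counters this in many settings, and Tie1 is a related receptor that modulates Tek. Pecam1 (CD31) and Cdh5 (VE-cadherin) are adhesion proteins of the junctions between endothelial cells and mark these cells in most tissues.

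On mm10, by the GENCODE M21 annotation, the ligands lie at chr17:46016993-46032369 (Vegfa, ENSMUSG00000023951) and chr19:6982473-6987651 (Vegfb, ENSMUSG00000024962). Their receptors lie on chromosome 5, Kdr (ENSMUSG00000062960) at chr5:75932827-75978458 and Flt1 (ENSMUSG00000029648) at chr5:147561604-147726011. Angpt1 (ENSMUSG00000022309) lies at chr15:42424723-42676977 and Angpt2 (ENSMUSG00000031465) at chr8:18690263-18741562, within the span of Mcph1. Tek (ENSMUSG00000006386) at chr4:94739289-94874976 and Tie1 (ENSMUSG00000033191) at chr4:118471191-118490061 share chromosome 4. Pecam1 (ENSMUSG00000020717) lies at chr11:106654217-106750628 and Cdh5 (ENSMUSG00000031871) at chr8:104101625-104144511. Only Angpt1 shares exon sequence with another gene. The antisense gene Gm17473 covers 737 bases, or 14.2%, of its exons, and since the sources used here do not give the strand setting of the counting, the Angpt1 counts are uncertain to that extent. Counts over whole genes do not separate the isoforms of Vegfa or the soluble from the membrane form of Flt1.

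Library totals ranged from 26444372 counts in KO5 to 40471957 in KO4, with a median of 31435732, and the 10 genes had between 236 and 10379 counts per mouse. The total of KO2, 28211941 counts, was also above that of KO5, so the counts on genes do not show the shortage for which KO2 and KO4 were left out, and raw reads were not analysed here. Levels are given as CPM, counts scaled by library size and TMM factors. Shank3 itself was at 29.4 to 34.4 CPM in KO1, KO3 and KO5 and at 32.5 to 38.5 CPM in WT1 to WT4, with 25.8 CPM in KO2 and 35.1 CPM in KO4, and its whole-gene count does not check the loss of exon 11. The 8 muscle fibre genes summed to between 59564 and 67130 CPM per mouse, so the label of muscle held in every library. High Xist marked WT3, WT4, KO3 and KO5, at 619 CPM or more, and the Y-linked gene Ddx3y was between 100.03 and 129 CPM in the other 5 mice, so the sexes were divided 1 to 2 in the *Shank3Δ11(-/-)* mice of the main comparison and 2 to 2 in *Shank3(+/+)*. KO5 carried RNA of fat and nerve sheath, with adipocyte genes at 285 CPM in sum against at most 25.9 CPM in the other mice and Schwann cell genes at 322 CPM against at most 162 CPM. KO1 carried the most red cell RNA, at 5780 CPM in sum against 1224 to 2195 CPM in the others. The part of these differences in the results that follow was not tested, apart from fits with the Y-linked level as a covariate, in which 0 of the 10 genes had an unadjusted p below 0.05 in edgeR in the 7 mice, where 2.72% of all genes tested had such a p, and 0 in all 9, where 2.16% had.

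Promoter sequences were in the RefSeq table (GRCm38.p6) for 6 of the 10 genes, Vegfa, Vegfb, Kdr, Flt1, Tek and Tie1. The windows run from 250 bases before to 50 bases after the start site, 5′ to 3′ on the strand of the gene. The 4 receptors are shown because their levels are compared with each other below. Capitals mark the letters GGAAG or their complement CTTCC, 1 form of the shorter core GGAA that ETS factors of endothelial cells bind.
Kdr, chr5:75978406-75978705, minus strand: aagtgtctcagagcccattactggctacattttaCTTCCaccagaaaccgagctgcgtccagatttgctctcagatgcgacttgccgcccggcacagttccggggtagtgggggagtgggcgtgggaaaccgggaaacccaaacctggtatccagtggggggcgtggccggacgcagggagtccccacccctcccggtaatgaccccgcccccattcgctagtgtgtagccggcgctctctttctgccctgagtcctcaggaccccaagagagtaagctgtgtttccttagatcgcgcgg
Flt1, chr5:147725962-147726261, minus strand: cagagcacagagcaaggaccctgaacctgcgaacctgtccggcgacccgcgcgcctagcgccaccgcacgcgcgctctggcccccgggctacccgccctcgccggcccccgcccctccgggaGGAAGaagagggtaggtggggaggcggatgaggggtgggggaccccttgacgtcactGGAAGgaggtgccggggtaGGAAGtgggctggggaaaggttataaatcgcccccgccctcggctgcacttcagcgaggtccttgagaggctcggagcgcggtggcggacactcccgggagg
Tek, chr4:94739039-94739338, plus strand: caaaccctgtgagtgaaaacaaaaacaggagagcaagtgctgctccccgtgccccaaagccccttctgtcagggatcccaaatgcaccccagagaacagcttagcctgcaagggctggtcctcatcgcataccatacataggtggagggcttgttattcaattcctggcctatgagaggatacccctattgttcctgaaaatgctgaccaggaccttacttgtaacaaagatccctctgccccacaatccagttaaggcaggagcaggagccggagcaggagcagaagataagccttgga
Tie1, chr4:118489800-118490099, minus strand: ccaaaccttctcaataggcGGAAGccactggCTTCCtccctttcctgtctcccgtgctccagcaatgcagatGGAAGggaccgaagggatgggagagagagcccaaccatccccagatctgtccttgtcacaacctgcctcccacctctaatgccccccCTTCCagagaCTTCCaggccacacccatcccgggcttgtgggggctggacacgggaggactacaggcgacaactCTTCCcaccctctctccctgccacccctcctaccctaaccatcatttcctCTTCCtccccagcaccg
Tie1 held 7 matches to these letters, Flt1 3, Kdr 1 and Tek 0. The shorter core GGAA, or TTCC, was not counted, and it also stands unmarked in the Tek and Kdr windows. Of 32851 mouse promoter windows of this length, 71.4% held at least 1 match on either strand, so a match in such a window is common, and a match is a description and not a binding site. For the Vegfa window at a start site inside the gene, capitals mark ACGTG and GCGTG or their complements, the core letters of hypoxia response elements.
Vegfa, chr17:46025114-46025413, minus strand: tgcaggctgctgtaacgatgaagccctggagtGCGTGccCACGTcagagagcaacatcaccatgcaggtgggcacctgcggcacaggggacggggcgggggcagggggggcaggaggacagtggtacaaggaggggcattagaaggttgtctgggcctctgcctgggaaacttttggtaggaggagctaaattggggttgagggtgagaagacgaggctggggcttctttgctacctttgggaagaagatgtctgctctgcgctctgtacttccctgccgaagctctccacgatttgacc
This window held 1 match of each form, at 211 and 218 bases before its start site, where 19.6% of all windows held ACGTG and 32.4% held GCGTG. The window at the upstream end of the gene, chr17:46032328-46032627, held neither form. Of the receptor windows shown, those of Kdr, with 2 matches, and Flt1, with 1, also held GCGTG, which is not capitalised there, and so did that of Vegfb, with 2. The gene counts do not tell the start sites apart.

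Per kilobase of exon, the junction genes were the most abundant and the angiopoietins the least. Over the 9 mice Cdh5 stood at 57.9 ± 5.11 CPM per kilobase (SD, n = 9) and Pecam1 at 34.1 ± 4.42. The VEGF ligands followed, with Vegfb at 29.4 ± 5.36 and Vegfa at 21.02 ± 3.78 CPM per kilobase. Among the receptors Tie1 stood at 17.6 ± 2.03, Tek at 12.4 ± 1.48, Kdr at 10.5 ± 1.54 and Flt1 at 3.67 ± 0.761 CPM per kilobase. Angpt2, at 2.81 ± 0.493, and Angpt1, at 2.10 ± 0.296 CPM per kilobase, were the lowest of the 10. The ranges of the mice did not overlap between Cdh5 and Pecam1, between Tie1 and Tek, or between Kdr and Flt1, where the step was 2.86-fold. Neighbours that changed places in some mice, a difference that was not tested, were Pecam1 and Vegfb, with Pecam1 higher in 8 of 9 mice, Vegfa and Tie1, with Vegfa higher in 6 of 9, and Tek and Kdr, with Tek higher in 7 of 9, and their ranges overlapped. The remaining neighbours kept their order in all 9 mice although their ranges overlapped. The length joins all annotated exons of a gene, 13504 bases for Flt1 and 9030 for Kdr, whichever of them newborn muscle uses, and the order depends on it.

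**Figure D1:**
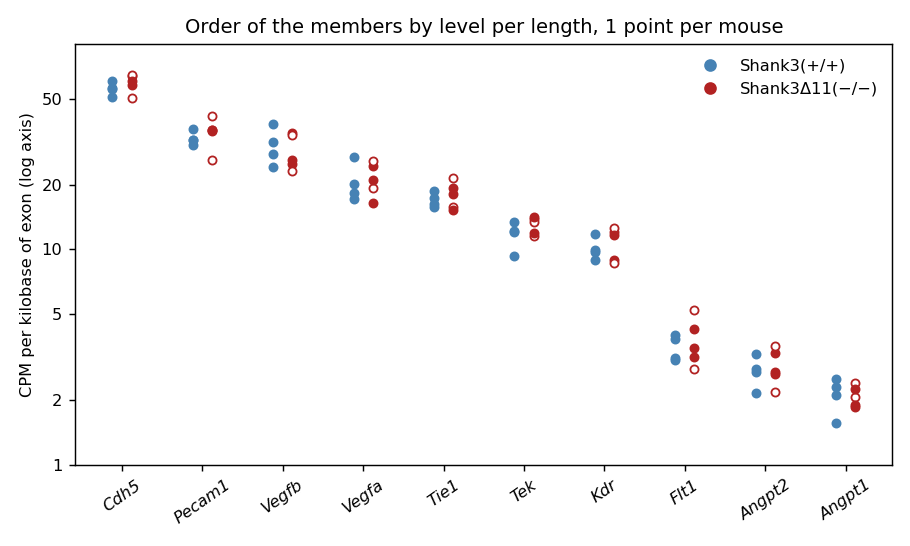
Level of each of the 10 genes in CPM per kilobase of exon, on a log axis, with 1 point per mouse, *Shank3(+/+)* in blue and *Shank3Δ11(-/-)* in red, KO2 and KO4 as open points. Genes run from Cdh5, at a mean of 57.9, to Angpt1, at a mean of 2.10, and the ranges of the genotypes overlap in every gene.

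Between the genotypes, no difference in the 10 genes passed the test, with genotype alone in the model, in the 7 mice or in all 9. In edgeR 0 of 10 had an unadjusted p below 0.05 in the 7 mice, where 1.16% of the 21809 genes tested had such a p on the higher side and 0.917% on the lower. With all 9 mice it was again 0 of 10, where 1.16% of 21735 genes were higher and 0.874% lower. The smallest p was that of Tek in both fits, at 0.207 and 0.217 in edgeR, and every FDR was 1.00. At p below 0.05 with an FDR below 25%, the call used here, 0 of the 10 genes passed, and over all genes 0% passed in edgeR with 7 mice and 0% with 9, from 453 and 442 genes with an unadjusted p below 0.05. DESeq2 called 6 genes and limma-voom 0 in the 7 mice. The genotypes overlapped in all 10 genes, so 0 of 10 were separated, where 2.84% of all genes were in the 7 mice and 0.686% in the 9.

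The differences were small, and more of them were above 0 than below. In the 7 mice 7 genes had a log2 fold change above 0, Kdr, Flt1, Angpt2, Tek, Tie1, Pecam1 and Cdh5. The 3 below were Vegfa, Vegfb and Angpt1. With 9 mice it was 8 and 2, with Vegfa above 0. The genes were measured in the same libraries, so their signs are not independent. In the 7 mice the median log2 fold change was 0.06, against -0.01 over all genes, and the median size was 0.09 against 0.10. With all 9 mice the median was 0.09, against 0.00 over all genes. The 95% intervals of the 10 genes lay between 0.718-fold and 1.37-fold in the 7 mice and between 0.746-fold and 1.39-fold in the 9, so a 2-fold change in either direction lay outside each of them. A level in bulk muscle reflects both the number of cells that make an RNA, endothelial or other, and the RNA in each, which cannot be told apart.

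**Figure D2:**
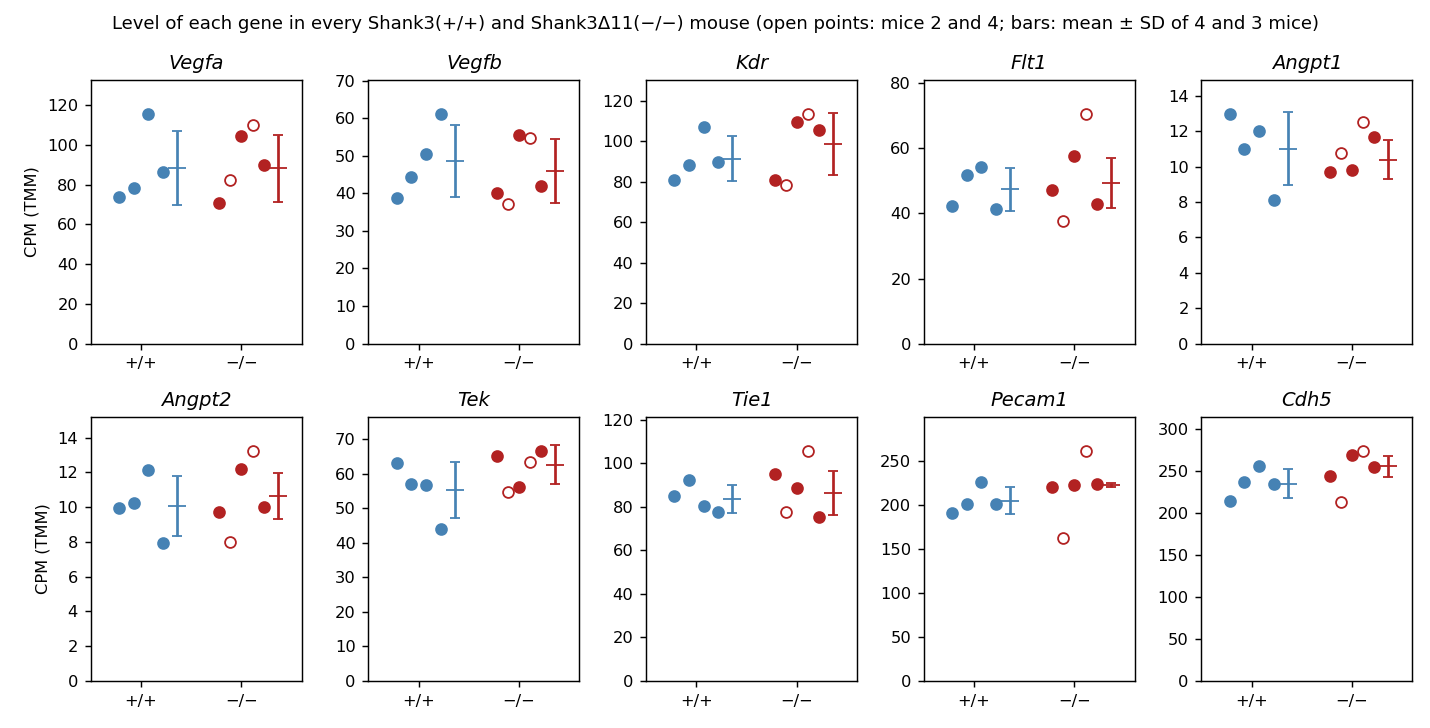
CPM of the 10 genes in each mouse, with *Shank3(+/+)* in blue and *Shank3Δ11(-/-)* in red, and axes that start at 0. Open points are KO2 and KO4, and the bars beside the points give the mean ± SD of the 4 *Shank3(+/+)* mice and of KO1, KO3 and KO5. The genotypes overlap in every gene, and KO2 and KO4 lie at opposite ends in Kdr, Flt1, Pecam1 and Cdh5 on this TMM scale, and with library size alone only in Flt1 and Pecam1.

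Of the ligands, Vegfa was at 70.6 CPM in KO1, 104 in KO3 and 89.7 in KO5, and at 73.9, 78.1, 115 and 86.5 CPM in WT1 to WT4. KO2 had 82.3 CPM and KO4 109.85 CPM. WT3 was the highest and KO1 the lowest mouse, and the *Shank3Δ11(-/-)* mice lay within the range of *Shank3(+/+)* except for KO1, just below it. The means were 88.2 ± 17.0 CPM (SD, n = 3) and 88.5 ± 18.7 CPM (SD, n = 4), and edgeR gave a log2 difference of -0.01 (standard error 0.18, edgeR p = 0.945, exact permutation p = 1.00). It was 0.05 with all 9 mice, and the 95% interval in the 7 mice was 0.758-fold to 1.30-fold. Vegfb, which in muscle has been linked to the handling of fatty acids more than to vessel growth, was at 39.98, 55.6 and 41.9 CPM in KO1, KO3 and KO5 and at 38.7, 44.4, 50.5 and 61.1 CPM in WT1 to WT4. KO2 had the lowest value of the 9 mice, at 37.2 CPM, and KO4 had 54.7 CPM, and the genotypes overlapped. The log2 fold change was -0.10 (standard error 0.17, edgeR p = 0.585, exact permutation p = 0.686) and its 95% interval was 0.718-fold to 1.22-fold.

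Of the VEGF receptors, Kdr was at 80.9, 109 and 105 CPM in KO1, KO3 and KO5, and at 80.6, 88.3, 107 and 89.6 CPM in WT1 to WT4, with 78.3 CPM in KO2 and 113 CPM in KO4. The values fell into a higher set, KO3, KO4, KO5 and WT3, and a lower set of the other 5 mice, and each set held both genotypes. The means were 98.6 ± 15.4 CPM (SD, n = 3) and 91.4 ± 11.1 CPM (SD, n = 4), and the log2 fold change was 0.10 (standard error 0.14, edgeR p = 0.475, exact permutation p = 0.486). Flt1 was at 47.2, 57.8 and 42.9 CPM in KO1, KO3 and KO5 and at 42.2, 51.8, 54.3 and 41.3 CPM in WT1 to WT4. Of the 10 genes it varied most among the 9 mice, 1.87-fold from KO2 at 37.8 CPM to KO4 at 70.5 CPM, so both ends were *Shank3Δ11(-/-)* mice. Its log2 fold change was 0.05 in the 7 mice (standard error 0.14, edgeR p = 0.735, exact permutation p = 0.714) and 0.11 with all 9.

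The angiopoietins were counted least. Angpt1 was at 9.68, 9.82 and 11.7 CPM in KO1, KO3 and KO5 and at 13.0, 11.0, 12.02 and 8.14 CPM in WT1 to WT4, with 10.8 CPM in KO2 and 12.5 CPM in KO4. WT1 was the highest and WT4 the lowest, so *Shank3(+/+)* spanned every *Shank3Δ11(-/-)* mouse. The log2 fold change was -0.09 (standard error 0.17, edgeR p = 0.605, exact permutation p = 0.714) with a 95% interval of 0.722-fold to 1.22-fold. It was -0.21 without WT4 and -0.0016 without WT1. Angpt2 was at 9.74, 12.2 and 9.99 CPM in KO1, KO3 and KO5 and at 9.95, 10.3, 12.1 and 7.94 CPM in WT1 to WT4. KO2 at 8.02 CPM lay next to WT4 at the low end and KO4 at 13.2 CPM was the highest. The log2 fold change was 0.07 (standard error 0.17, edgeR p = 0.669, exact permutation p = 0.629) with a 95% interval of 0.816-fold to 1.35-fold.

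Tek, the angiopoietin receptor, had the largest log2 fold change of the 10 genes in the 7 mice and in all 9, and it did not pass the test in either. It was at 65.3, 56.3 and 66.5 CPM in KO1, KO3 and KO5 and at 63.3, 57.1, 56.8 and 44.1 CPM in WT1 to WT4, with 54.7 CPM in KO2 and 63.4 CPM in KO4. WT4 stood below every other mouse, and KO3 lay below 3 of the 4 *Shank3(+/+)* mice. The means were 62.7 ± 5.57 CPM (SD, n = 3) and 55.4 ± 8.07 CPM (SD, n = 4), and the log2 fold change was 0.17 (standard error 0.13, edgeR p = 0.207, exact permutation p = 0.200), and 0.15 with all 9 mice. Its 95% interval was 0.925-fold to 1.37-fold, and without WT4 the log2 fold change was 0.083. The place of Tek among the 10 genes rested on single mice, since without KO1, KO3, KO5, WT3 or WT4 another of them had the larger size of log2 fold change, as Kdr did without KO1 (0.23, with Tek at 0.14). Tie1 was at 95.3, 88.8 and 75.2 CPM in KO1, KO3 and KO5 and at 84.9, 92.2, 80.2 and 77.7 CPM in WT1 to WT4, with 77.7 CPM in KO2 and 105 CPM in KO4. The *Shank3Δ11(-/-)* mice held both the highest and the lowest value, and the log2 fold change was 0.04 (standard error 0.11, edgeR p = 0.745, exact permutation p = 0.714).

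The junction genes had the smallest standard errors of the 10 in the 7 mice. Pecam1 was at 219.9, 223 and 224 CPM in KO1, KO3 and KO5, close to each other, and at 190.3, 202, 226 and 201 CPM in WT1 to WT4. WT3 stood above all 3, and KO2 and KO4, at 163 and 261 CPM, were the lowest and the highest of the 9 mice. The spread of the 5 *Shank3Δ11(-/-)* mice, 35.2 CPM (SD, n = 5), was thus far wider than the 2.19 CPM (SD, n = 3) of the mice that the study kept. The log2 fold change was 0.11 (standard error 0.10, edgeR p = 0.289, exact permutation p = 0.143) and 0.09 with all 9 mice (exact permutation p = 0.619). Cdh5 was at 243, 268 and 254 CPM in KO1, KO3 and KO5 and at 214, 236, 255 and 234 CPM in WT1 to WT4, with 213 CPM in KO2 and 273 CPM in KO4. WT3 again lay among the higher *Shank3Δ11(-/-)* mice. The log2 fold change was 0.11 (standard error 0.10, edgeR p = 0.299, exact permutation p = 0.171), and its 95% interval was 0.923-fold to 1.27-fold. Without WT3 the genotypes did not overlap in Pecam1 and Cdh5, as in 5.66% of all genes tested, and without KO3 they did not overlap in Tek, as in 10.3% of all genes tested. The share was 2.84% with the 7 mice. The smallest p that the exact test allows is 0.0286 for 3 against 4 mice and 0.00794 for 5 against 4.

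**Figure D3:**
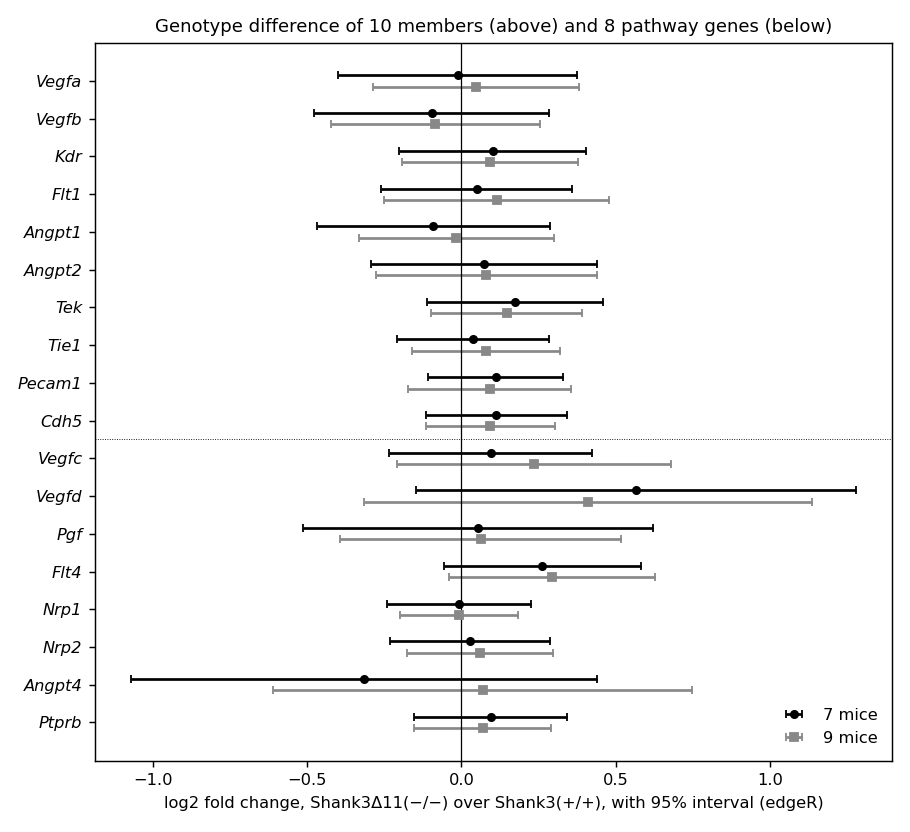
Log2 fold change of *Shank3Δ11(-/-)* over *Shank3(+/+)* from edgeR with its 95% interval, in 7 mice (black circles) and in all 9 (grey squares), for the 10 genes above the dotted line and 8 further genes of the pathway below it. Every interval crosses 0, and the intervals of the 10 genes are narrower than those of Vegfd and Angpt4.

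Ratios of paired genes, which do not depend on the scaling of the libraries, gave the same picture. Angpt2 had 1.01, 1.24 and 0.854 counts for each count of Angpt1 in KO1, KO3 and KO5 and 0.767, 0.935, 1.01 and 0.976 in WT1 to WT4. The groups overlapped, and the difference in log2 ratio was 0.16 (exact permutation p = 0.429, adjusted p = 0.857 over 5 ratios). Flt1 had between 0.407 and 0.623 counts for each count of Kdr over the 9 mice, with KO5 and KO4, both *Shank3Δ11(-/-)*, at the ends, and a log2 difference of -0.05. Vegfa to Vegfb (log2 difference 0.08), Tek to Tie1 (0.15) and Kdr to Cdh5 (-0.02) had exact permutation p-values of 0.743, 0.457 and 0.857. With all 9 mice every ratio had an adjusted p of 0.976. The ratio of Kdr to Cdh5, a receptor set against a junction gene of the same cells, ran only from 0.333 in KO1 to 0.419 in WT3.

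Of the other ligands and receptors of the pathway, 0 of 8 had an unadjusted p below 0.05 in edgeR in the 7 mice or in all 9. Among all genes tested 1.16% had such a p on the higher side and 0.917% on the lower in the 7 mice. In the 9 mice these shares were 1.16% and 0.874%. In the 7 mice 6 of the 8 pathway genes had a log2 fold change above 0 and 2 below. Their median log2 fold change was 0.07. The nearest to the threshold was Flt4 (VEGFR3), the receptor of lymphatic endothelium, at 14.9, 21.3 and 16.4 CPM in KO1, KO3 and KO5 and at 14.8, 13.1, 15.6 and 14.7 CPM in WT1 to WT4. KO1 lay among the *Shank3(+/+)* mice and KO3 and KO5 above them, and of the mice left out KO2, at 13.6 CPM, lay among them and KO4, at 22.8 CPM, above. The log2 fold change was 0.26 (standard error 0.14, edgeR p = 0.0976, exact permutation p = 0.0571) and 0.29 with all 9 mice (exact permutation p = 0.198). Vegfd, a ligand of Flt4, differed by 0.57 on the log2 scale (standard error 0.32, edgeR p = 0.108, exact permutation p = 0.257), with 5.83, 11.7 and 8.24 CPM in KO1, KO3 and KO5 and 3.10 to 8.01 CPM in *Shank3(+/+)*. Without KO1 both Flt4, at 0.37, and Vegfd, at 0.78, had an unadjusted p below 0.05, as did Vegfd without WT4, at 0.77 (without KO1 4.35% and without WT4 2.09% of all genes tested had such a p), and without KO3 they were at 0.097 and 0.28. Vegfc, the other ligand of Flt4, had 0.09 and was highest in KO4, at 12.6 CPM against 5.74 to 8.13 CPM in the other 8 mice. Pgf, a ligand of Flt1, had 0.05, and the coreceptors Nrp1 and Nrp2 had -0.01 and 0.03. Ptprb (VE-PTP), a phosphatase that acts on Tek, had 0.09. Angpt4 was near the limit of counting, at 8 to 26 counts per mouse, with a log2 fold change of -0.32 (edgeR p = 0.375, exact permutation p = 0.257). With all 9 mice its sign turned, at 0.069. Of 19 tested genes that relay the VEGF signal inside the cell, 9 had a log2 fold change above 0 and 10 below, 0 passed an unadjusted p of 0.05 in edgeR, and their median was -0.00114. The list includes the kinases of the Erk and Akt branches and Nos3, and its summed level ran only from 2071 to 2182 CPM over the 9 mice.

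Endothelial genes outside the 10 were counted in a list of their own. Of 30 tested, 23 had a log2 fold change above 0 and 7 below, with a median of 0.09 against -0.01 over all genes. A single one, the sphingosine-1-phosphate receptor S1pr1, had an unadjusted p below 0.05 in edgeR, with a log2 fold change of 0.31 (standard error 0.12, FDR = 1.00), and with all 9 mice 0 of 30 did. Among all genes tested 1.16% had such a p on the higher side in the 7 mice and 0.917% on the lower. In the 9 mice these shares were 1.16% and 0.874%. Of the most abundant genes of this list, Cd93 was at 182 ± 19.3 CPM (SD, n = 3) against 166 ± 26.1 CPM (SD, n = 4), Eng at 99.8 ± 12.4 against 95.8 ± 9.48 CPM and Aplnr at 82.9 ± 9.998 against 73.2 ± 19.0 CPM. The summed level of the list was 1272, 1305 and 1290.1 CPM in KO1, KO3 and KO5 and 1159, 1278, 1194 and 1165 CPM in WT1 to WT4. WT2 overlapped with KO1, and the mice left out again stood at the ends, KO2 at 1039 CPM and KO4 at 1544 CPM. The list shares Ptprb with the pathway genes, Nos3 with the genes that relay the VEGF signal, and Sox17 and Aplnr with the arterial and venous lists below. It was measured in the same libraries as the 10 genes.

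Genes of single kinds of vessel were also counted by list, and differences between lists were not tested. Lists can share genes, as the arterial and tip cell lists share Dll4, and the tip cell list and the hypoxia targets share Adm. Over all genes tested 1.16% had an unadjusted p below 0.05 on the higher side in the 7 mice and 0.917% on the lower, and 1.16% and 0.874% in the 9. All 5 venous genes had a log2 fold change above 0, with a median of 0.20. In the 7 mice 0 of them had an unadjusted p below 0.05, and with all 9 mice 2 did, Ackr1, a chemokine-binding protein of venules (log2 fold change 0.72, FDR = 1.00 in edgeR), and Nr2f2, the transcription factor of venous identity (0.22, FDR = 1.00 in edgeR), neither called. Of 7 lymphatic genes 5 were above 0 with a median of 0.22, and Mmrn1 had an unadjusted p below 0.05 in the 7 mice (log2 fold change 0.88, FDR = 1.00 in edgeR) and not in the 9. Flt4, given above among the pathway genes, is 1 of these 7 and is not a separate observation. Arterial genes, 3 above and 5 below 0 with a median of -0.05, and genes of tip cells and sprouting, 5 and 5 with a median of -0.00226, had 0 genes with such a p in both fits. Genes of pericytes and smooth muscle, the cells around the vessel, had 7 above and 5 below 0, 0 with such a p, and a median of 0.06. Of these Acta2 was at 403 ± 34.4 CPM (SD, n = 3) against 408 ± 32.0 CPM (SD, n = 4), Rgs5 at 199.97 ± 41.3 against 176 ± 35.5 CPM and Abcc9 at 153 ± 12.02 against 141 ± 19.2 CPM. KO5, the mouse with adipocyte and Schwann cell RNA, also had the highest venous level, 0.46 above its 9-mouse mean on the log2 scale, and WT3 the lowest, -0.53. Among other cells found in or around vessels, 4 platelet genes were tested and 7 genes of leukocytes and macrophages, with medians of 0.15 and 0.11 and 0 genes at an unadjusted p below 0.05 in edgeR. The red cell list had a median of 0.88, with KO1 far above the other mice, and 0 of 6 genes at such a p. In the 3 adipocyte genes tested and in 2 of 4 Schwann cell genes the p was below 0.05 on the higher side in the 7 mice, with KO5 the highest mouse in the summed level of both lists. Of 5 genes of fibro-adipogenic progenitors 3 were above 0 with a median of 0.05, and of 8 muscle fibre genes 7 were above 0 with a median of 0.07, 0 with such a p in either list.

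Vegfa and genes of the response to low oxygen were high in some of the same mice, of both genotypes. The 15 hypoxia targets, glycolytic and oxygen-sensing genes, had a mean level of 0.24, 0.31, 0.41 and 0.18 in KO3, KO4, WT3 and WT4, in log2 CPM relative to the 9 mice, and of -0.20, -0.26, -0.11, -0.26 and -0.32 in KO1, KO2, KO5, WT1 and WT2. Both sets hold both genotypes, and as the mice fall into 2 separate sets no correlation is given. Vegfa was highest in WT3, KO4 and KO3, and in WT4, the fourth mouse of the higher set, it was at 86.5 CPM, below KO5 at 89.7 CPM. Pdk1, a kinase that turns pyruvate away from the mitochondria, ran from 63.4 CPM in KO5 to 153 CPM in WT3. Slc2a1, the glucose transporter GLUT1, was at 17.7 to 23.6 CPM in KO3, KO4, WT3 and WT4 and at 6.38 to 8.81 CPM in the other 5 mice. Ldha, at 979.6 ± 128 CPM (SD, n = 3) against 1036 ± 181 CPM (SD, n = 4), and Egln1, at 81.0 ± 10.4 against 83.6 ± 14.8 CPM, overlapped between the genotypes. Of the 15 targets 5 had a log2 fold change above 0 and 10 below in the 7 mice, with a median of -0.04 and 0 at an unadjusted p below 0.05 in edgeR in either fit. Of the 5 hypoxia factors, among them Hif1a and Epas1, 3 were above 0 and 2 below with a median of 0.02 and 0 at such a p. Among all genes tested 1.16% had such a p on the higher side and 0.917% on the lower in the 7 mice. In the 9 mice these shares were 1.16% and 0.874%. Of the mice with high hypoxia targets, KO3, WT3 and WT4 also had high Xist, but KO4 had Ddx3y at 105 CPM, and KO5, with Xist at 813 CPM, was in the lower set, and the part of sex in the pattern was not tested.

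**Figure D4:**
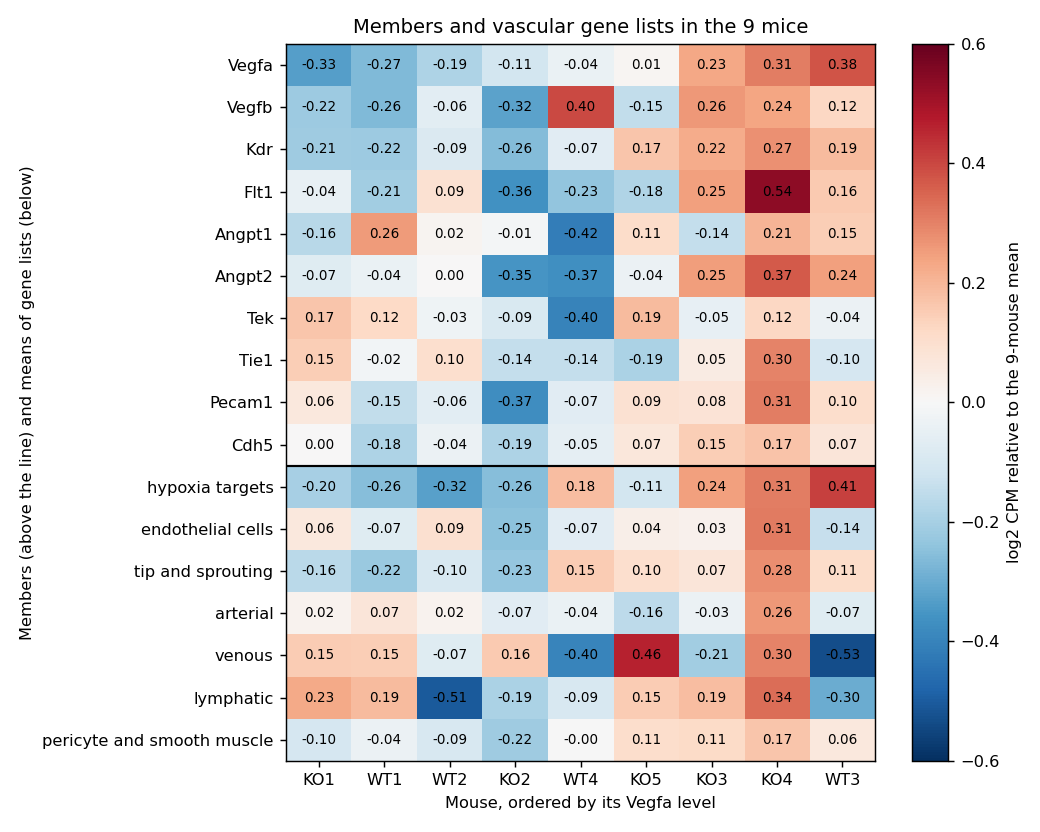
Level of the 10 genes (above the line) and mean level of 7 gene lists (below it) in each mouse, in log2 CPM relative to the mean of the 9 mice, red above and blue below it, with mice ordered by their Vegfa level. Hypoxia targets are above 0 in WT4, KO3, KO4 and WT3, and both genotypes stand on each side of the axis, with KO1 at the low end and WT3 at the high end. KO4 is above 0 in every row and KO2 is below 0 in every row but the venous list.

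Over the 9 mice, most pairs of the genes had a positive correlation. KO4 was the highest mouse in 6 of the 10 genes, Kdr, Flt1, Angpt2, Tie1, Pecam1 and Cdh5, and KO2 the lowest in 5, Vegfb, Kdr, Flt1, Pecam1 and Cdh5. With scaling to library size alone, without TMM, KO4 was the highest in 4 and KO2 the lowest in 3. Kdr was left out of correlations because its mice fell into separate sets. Over the other 9 genes 33 of 36 pairs had a Pearson's r above 0, with a median of 0.53, and 2 pairs passed an adjusted p below 0.05 over the 36 pairs by both Pearson's r and Spearman's rho. The same count over other genes was not computed, so nothing here sets these genes apart from the rest. Pecam1 and Cdh5 had r = 0.91 (exact permutation p = 4.7e-05, adjusted 0.00169) and rho = 0.95 (exact permutation p = 0.000353, adjusted 0.0127) over 9 mice, and r was 0.92 without KO2 and KO4, the mice farthest from the median. Flt1 and Angpt2 had r = 0.91 (exact permutation p = 0.000185, adjusted 0.00332) and rho = 0.93 (exact permutation p = 0.00075, adjusted 0.0135), and r was 0.84 without the same mice. Flt1 and Cdh5 passed by rho alone (rho = 0.92, exact permutation p = 0.00131, adjusted 0.0157), where r = 0.82 had an adjusted p of 0.0563 and was 0.67 without KO2 and KO4. Vegfb and Tek had the lowest value, r = -0.56 (exact permutation p = 0.111) and rho = -0.33 (exact permutation p = 0.385), and r was 0.01 without KO3 and WT4, so it rested on those mice. The levels of a mouse share its library, scaling and dissection, and the genotypes and the sexes, each at 5 and 4 mice, are too few for values within them.

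The SD of log2 CPM over the 9 mice ran from 0.13 for Cdh5 to 0.28 for Flt1, where the median of all genes tested was 0.23. Of the 10 genes 6 lay below that median, and Vegfa, Vegfb, Flt1 and Angpt2 lay above it. The genes tested were not matched to the 10 for level, so whether the 10 vary more or less than genes of like level was not tested. By the correlation over the 9 mice, out of 21725 genes, those most like Vegfa were Gm43031 (r = 0.97), Rbm28 (0.97), Esco2 (0.96), Stard4 (0.96) and Copa (0.96). Each was lowest in KO1 or WT1 and highest in WT3 or KO4. Those most like the mean of Kdr, Flt1, Tek, Tie1, Pecam1 and Cdh5 were the mitochondrial ribosomal RNA mt-Rnr2 (r = 0.97), the lectin Clec1a (0.97), Gm20594 (0.96), Tmsb15b2 (0.96) and Tmsb15l (0.96). mt-Rnr2 was at 1876 CPM in KO2 and 4179 CPM in KO4, the ends of its range, as the endothelial mean was, at -0.24 and 0.28 on the log2 scale. The part of the mitochondrial RNA level in this common variation was not tested. Tmsb15b2 and Tmsb15l can share reads, and these likenesses, the highest of many genes over 9 mice, are given as a description.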

How the data were processed

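The gastrocnemius of 9 newborn mice was sequenced, 1 library per mouse. Raw counts per gene were deposited, made by the authors with HISAT2 on mm10 and featureCounts from concordant alignments, with no normalization. Sources used here do not state the annotation release, strand setting or handling of multi-mapped reads. Symbols were found for 55144 of 55471 gene IDs. The filter filterByExpr, with a minimum count of 10 and a minimum total of 15, kept 21809 genes in the 7 mice of the study's choice (KO2 and KO4 left out) and 21735 genes in all 9. Fold changes, intervals and p-values came from edgeR 4.0.16 (R 4.3.3), using TMM and the robust quasi-likelihood test, and the FDR was computed by Benjamini and Hochberg's method across the genes tested. The study itself used limma. Calls needed p below 0.05 and an FDR below 25%, the thresholds that the study gives. At these the study reported differentially expressed genes, where edgeR and limma-voom called 0 in the 7 mice here. CPM of all mice are on the TMM scale of the 9 libraries. CPM per kilobase use joined exon lengths of GENCODE M21. Exact 2-sided permutation tests ran on log2 CPM (prior count 2), or on log2 ratios of counts (0.5 added), over 35 splits of 7 mice or 126 of 9. A gene with a gap over 0.4 of its range, with at least 2 mice on each side, got no correlation.

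The genes and lists were chosen with earlier results of these data known. The named genes are the 10, Shank3, 8 pathway genes, any called gene of a list, the 3 most abundant genes of the endothelial, pericyte and hypoxia target lists, and the 5 genes most correlated with Vegfa and with the endothelial mean. List genes with an unadjusted p below 0.05, and Slc2a1, were named after their values were seen. Library totals of 26444372 to 40471957 counts gave at least 236 counts for each of the 10 genes, and every test rests on the spread between mice. Alternatives were all 9 mice, other filters and scalings, DESeq2 1.42.0, limma-voom (limma 3.58.1), a replicate block, the Y-linked level as a covariate and each mouse left out. The edgeR step was tested on simulated data.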

Additional observations from a re-analysis of the deposited data

Results flagged for a closer look

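Of the values of 10 vascular genes, 8 pathway genes and others tested in 48 groups of 4 or 5 mice, 1 stood apart from its group. Shank3 was at 38.5 CPM in WT4 against 32.5 to 32.9 CPM in the other *Shank3(+/+)* mice, a gap of 0.93 of the range. Chance flags about 1 group in 20 by this measure. None of the 10 genes of VEGF, angiopoietin and the endothelium was set apart in this way.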

How the results depend on the processing

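Over 18 other settings, 167 of 180 values of the 10 genes kept their sign, 13 did not, and 0 were called. With 3 against 4 mice, the tests do not decide on fold changes inside the printed intervals. Genes called over all genes were 1 without the filter, 6 with DESeq2, and 9 (7 mice) and 2 (9 mice) with a replicate block. Genes with an unadjusted p below 0.05 were 972 without the filter and 844 with the block in 7 mice. With all 9 mice the log2 fold change was 0.047 for Vegfa and 0.069 for Angpt4, and the log2 ratio of Flt1 to Kdr was 0.00395. With the Y-linked level as a covariate in 9 mice Vegfa was at 0.073 and Angpt4 at 0.044.

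The replicate numbers were not shown to pair the mice: deviations of same-numbered mice correlated at 0.373, 0.0524, 0.357 and 0.101 for numbers 1 to 4. With the replicate block in 7 mice, which rests on numbers 1 and 3, 1 of the 10 genes had an unadjusted p below 0.05 in edgeR, Angpt1 (log2 fold change -0.36), where 3.87% of all genes tested had such a p. There Tek was at 0.012 and Kdr at 0.014, and of the pathway genes Vegfd, at 0.49, had an unadjusted p below 0.05. There Vegfb was at 0.089, Angpt2 at -0.015, Vegfc at -0.044 and Nrp2 at -0.10. With the block in 9 mice Vegfa was at 0.053, Nrp1 at 0.00318 and Angpt4 at 0.16, and Vegfd, at 0.34, and Flt4, at 0.29, had an unadjusted p below 0.05, where 2.08% of all genes tested had. None of these was called. Paired over numbers 1 and 3, the log2 ratio of Flt1 to Kdr was 0.11, that of Vegfa to Vegfb -0.20 and that of Tek to Tie1 -0.14, and over numbers 1 to 4 Flt1 to Kdr was 0.092 and Tek to Tie1 -0.00362.

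Leaving out each mouse gave 0 to 15 genes called, with 15 without KO1, 4 without KO3 and 1 without WT2, and 224 to 968 genes with an unadjusted p below 0.05, with 968 without KO1, 794 without KO3 and 224 without KO5. Between 0 and 2 of the 10 genes were without overlap, Pecam1 and Cdh5 without WT3 (as 5.66% of all genes tested) and 1, Tek, without KO3 (as 10.3%). Log2 fold changes ran from -0.15 to 0.15 for Vegfa, from -0.26 to 0.037 for Vegfb, from -0.081 to 0.14 for Flt1, from -0.037 to 0.18 for Angpt2, from -0.037 to 0.12 for Tie1, from -0.20 to 0.32 for Pgf, from -0.060 to 0.059 for Nrp1 and from -0.054 to 0.11 for Nrp2. The log2 ratios ran from -0.16 to 0.10 for Flt1 to Kdr, from -0.037 to 0.19 for Vegfa to Vegfb and from -0.075 to 0.083 for Kdr to Cdh5. Of the genes that kept their sign, Kdr ran from 0.02 to 0.23, Angpt1 from -0.21 to -0.0016, Tek from 0.083 to 0.25, Pecam1 from 0.081 to 0.17, Cdh5 from 0.074 to 0.16, Vegfd from 0.28 to 0.78, Flt4 from 0.097 to 0.37, Ptprb from 0.015 without KO1 to 0.14, Vegfc from 0.048 to 0.18 and Angpt4 from -0.48 to -0.20, and the ratios of Angpt2 to Angpt1 from 0.016 to 0.29 and of Tek to Tie1 from 0.006 to 0.25. The cause of these shifts was not tested.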
